A study of Mus musculus with 59 samples.

Results

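Meox1, Bcl6b, Ccdc115, Arpp19, Skp1a, Irf2bp2 and Ypel2 are 7 genes whose transcripts differed in the mouse diaphragm after injections of recombinant Fibcd1 (rFibcd1), and all 7 were found among the 47643 gene symbols of the expression table. The genes were chosen by their measured values in the diaphragm comparisons of rFibcd1 with mock. Meox1, Bcl6b, Ccdc115, Arpp19 and Skp1a were the 5 genes called higher with rFibcd1 under the cachectic melanoma. Irf2bp2 and Ypel2 ranked first and second by p-value among the 56 genes called under the non-cachectic melanoma. Their diaphragm values are therefore given as a description, and tests compare only groups of tibialis anterior and soleus libraries. Those libraries did not enter the choice but may come from the same mice as some of the mock diaphragms. The contrasts between these muscles take their spread from a fit that also holds the mock diaphragms, so they are not independent of the choice.

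All mice were 4-month-old female NCI Ath/nude animals, which lack a thymus and therefore most T cells, and every mouse carried a patient-derived human melanoma xenograft in the flank. The cachectic (CAC) melanoma makes muscle waste and the non-cachectic (NONCAC) melanoma does not, and each kind was a single xenograft, so a difference between melanomas is a difference between those tumours. rFibcd1 resembles the secreted C-terminal fragment of mouse Fibcd1 and was injected into the peritoneum during the last week, against mock injections of the albumin vehicle. Among the diaphragms, 10 came from mock-injected and 10 from rFibcd1-injected mice with the cachectic melanoma, and 9 and 10 from those with the non-cachectic melanoma. The cachectic diaphragm groups used here hold more libraries than the study's own comparison of them, and which of them the study left out is not given in the sources used here. Tibialis anterior (TA, a fast limb muscle) and soleus (a slow limb muscle) came from cachectic and non-cachectic mice (n = 5 in each of the 4 groups), with no injection stated. There was no group without a tumour.

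The 7 genes belong to unrelated machineries. Meox1 is a homeobox transcription factor that patterns somites in the embryo and is found in fibroblasts of adult tissue, and Bcl6b is a zinc-finger repressor related to Bcl6 that is known from blood vessels and lymphocytes. Ccdc115 helps to assemble the vacuolar proton pump (V-ATPase) that acidifies organelles. Arpp19, once phosphorylated by the Greatwall kinase, inhibits the phosphatase PP2A-B55. Skp1a links F-box proteins to cullin in SCF ubiquitin ligases, which include the complex of the atrophy gene Fbxo32. Irf2bp2 is a corepressor that was first described as a partner of the interferon regulator Irf2, and Ypel2 is a member of the small, conserved Yippee-like family of zinc-binding proteins.

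Values are TPM, a length-corrected share of a library's transcripts with a fixed sum, so sequencing depth is unknown. Between 16436 and 19456 genes were above 0 in a library. Muscle identity held in the groups, with Myh4, the fastest myosin, at 7593 to 14537 TPM in TA and Myh7, the slow myosin, at 4288 to 7886 TPM in soleus, although 1 cachectic soleus library had 4989 TPM of Myh4 against 7.34 to 69.8 TPM in the other soleus libraries. Libraries also fell into separate states by Pcna-ps2, a pseudogene taken as high above 1 TPM. The high state covered 9 of 10 cachectic mock, 8 of 10 cachectic rFibcd1, 3 of 9 non-cachectic mock and 6 of 10 non-cachectic rFibcd1 diaphragms. In limb muscle all 10 cachectic libraries were in the high state and all 10 non-cachectic libraries in the low state, so melanoma and state cannot be told apart there. Fibcd1 itself stayed at or below 0.0118 TPM in every diaphragm and TA library and at 0.0236 to 0.273 TPM in soleus.

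The positions of the genes and the sequence before their starts were read to show what the 7 share besides their values. Meox1 (chr11:101877510-101894374), Bcl6b (chr11:70224128-70229798), Skp1a (chr11:52231995-52246858) and Ypel2 (chr11:86936425-86993707) lie on chromosome 11, Ccdc115 on chromosome 1 (chr1:34436670-34439672), Arpp19 on chromosome 9 (chr9:75037614-75060313) and Irf2bp2 on chromosome 8 (chr8:126588296-126593986), all in GENCODE M21 on GRCm38. On the opposite strand Gm11551 overlaps Meox1 and Gm26759 overlaps Irf2bp2, Gm28306 overlaps Ccdc115 on the same strand, and Gm12207 (same strand) and Gm26551 (opposite strand) overlap Skp1a. The labels name a stranded library kit and the study's methods one that does not keep the strand, and whether reads were counted by strand is not given in the sources used here, so reads of the overlapping parts could be assigned to either gene. Stretches of Ccdc115 and Skp1a also have processed pseudogenes of at least 95% identity over at least 100 bases (Gm7774 and Gm12988), both listed at 0 TPM in every library, while Gm28306 and Gm26759 reached 0.213 and 0.180 TPM.

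RefSeq promoter windows were found for 5 of the 7 genes, and those of 4 genes are printed here to show the letters that were matched in them. Each is the 250 bases before the RefSeq start on GRCm38.p6, 5′ to 3′ on the gene's strand, and capitals mark the matches named after the sequences.
Ccdc115 (chr1:34439673-34439922, minus strand): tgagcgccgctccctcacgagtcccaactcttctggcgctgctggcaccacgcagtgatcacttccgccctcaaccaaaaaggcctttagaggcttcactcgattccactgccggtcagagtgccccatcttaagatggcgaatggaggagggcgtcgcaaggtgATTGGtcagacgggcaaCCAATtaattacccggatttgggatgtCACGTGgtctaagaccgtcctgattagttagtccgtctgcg
Skp1a (chr11:52231745-52231994, plus strand): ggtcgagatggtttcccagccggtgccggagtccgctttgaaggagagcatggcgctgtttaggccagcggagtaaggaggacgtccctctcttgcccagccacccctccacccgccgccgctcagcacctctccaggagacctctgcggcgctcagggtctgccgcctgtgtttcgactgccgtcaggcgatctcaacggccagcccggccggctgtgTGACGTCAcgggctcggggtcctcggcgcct
Irf2bp2 (chr8:126593987-126594236, minus strand): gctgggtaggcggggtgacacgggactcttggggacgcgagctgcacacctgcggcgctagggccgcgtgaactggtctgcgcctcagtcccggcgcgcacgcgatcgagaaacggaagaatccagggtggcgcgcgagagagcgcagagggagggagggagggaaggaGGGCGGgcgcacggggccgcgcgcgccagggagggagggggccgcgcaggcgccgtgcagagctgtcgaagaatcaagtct
Ypel2 (chr11:86993763-86994012, minus strand): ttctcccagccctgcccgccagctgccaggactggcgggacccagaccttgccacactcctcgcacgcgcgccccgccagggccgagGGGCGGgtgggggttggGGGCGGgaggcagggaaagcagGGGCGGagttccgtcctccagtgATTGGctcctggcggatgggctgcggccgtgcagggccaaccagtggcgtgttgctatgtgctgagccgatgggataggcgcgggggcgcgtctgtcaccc
The letters searched on both strands were the E-box CACGTG, the cAMP response element TGACGTCA, the CCAAT box, the GC box GGGCGG, the TATA box TATAAA and the glucocorticoid receptor motif AGAACA, and no searched motif contains another. Capitals in Ccdc115 mark an E-box, which is held by 6.02% of all 32851 promoter windows, 41 bases before the start, and CCAAT boxes 85 and 68 bases before it (33.8% of windows hold one), and a GC box on the other strand at 186 bases is left in lower case. The Skp1a window has a cAMP response element 31 bases before the start, a match present in 1.55% of windows. Irf2bp2 has a GC box (32.7% of windows) 81 bases before the start, whereas Ypel2 has GC boxes at 163, 146 and 124 bases and a CCAAT box at 101 bases. The GC content of the windows was 56.0% for Ccdc115, 68.0% for Skp1a, 71.6% for Irf2bp2, 72.0% for Ypel2 and, in the unprinted windows of the 2 starts of Arpp19, 51.2% and 60.4%, against a median of 52.4% over all windows (quartiles 45.2% and 61.2%). The first Arpp19 window holds the glucocorticoid receptor motif 152 bases before the start (16.1% of windows hold it), and no match is shared by all 5 genes. These matches are letters in a window and say nothing of whether a factor binds.

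Meox1 had its lowest diaphragm level with the cachectic melanoma and mock. It ranged from 2.49 through a median of 4.91 to 7.13 TPM in cachectic mock libraries, and from 4.52 through 10.7 to 30.0 TPM in cachectic rFibcd1 libraries. In non-cachectic diaphragms it ranged from 4.93 through 7.59 to 8.92 TPM with mock and from 9.43 through 12.8 to 19.0 TPM with rFibcd1. Of the cachectic rFibcd1 libraries 7 of 10 lay above every cachectic mock library, and the non-cachectic rFibcd1 libraries all lay above every non-cachectic mock library. The 3 cachectic rFibcd1 libraries that lay within the mock range for Meox1 (4.52, 4.99 and 6.47 TPM) were also the 3 with the lowest mean of fibroblast markers in their group. The latter 2 of these were the only low-state libraries of the group.

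Bcl6b was lowest in cachectic mock diaphragms. With mock it ranged from 1.64 through a median of 2.21 to 7.03 TPM in cachectic diaphragms and from 5.40 through 8.25 to 13.5 TPM in non-cachectic diaphragms, where 9 of 10 cachectic libraries lay below every non-cachectic library. With rFibcd1 it ranged from 3.19 through 6.24 to 9.36 TPM under the cachectic melanoma and from 7.14 through 10.4 to 12.6 TPM under the non-cachectic melanoma. The cachectic rFibcd1 libraries thus sat between cachectic mock and non-cachectic mock, overlapping both, and the 2 low-state libraries of that group (3.19 and 3.93 TPM) were its lowest. The median of the 8 high-state cachectic rFibcd1 libraries was 6.83 TPM against 2.14 TPM in the 9 high-state cachectic mock libraries.

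Ccdc115, Arpp19 and Skp1a are transcribed in most cells, and their differences were small but their spread was narrow. Ccdc115 ranged from 10.3 through 10.9 to 12.1 TPM in cachectic mock and from 12.1 through 13.8 to 16.9 TPM in cachectic rFibcd1 diaphragms, with 9 of 10 rFibcd1 libraries above every mock library. Arpp19 ranged from 22.6 through 24.6 to 26.2 TPM and from 25.2 through 29.6 to 32.7 TPM in the same groups. Skp1a, the most abundant of the 7, ranged from 104.7 through 122.3 to 131.4 TPM and from 128.3 through 142.3 to 172.9 TPM. For Arpp19 and Skp1a 8 of 10 rFibcd1 libraries lay above the mock range. Under the non-cachectic melanoma the mock and rFibcd1 medians of these genes were closer, at 11.1 and 12.4 TPM for Ccdc115, 26.5 and 27.5 TPM for Arpp19 and 125.5 and 138.4 TPM for Skp1a.

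Irf2bp2 and Ypel2 had the opposite layout, with the low group in non-cachectic mock. Irf2bp2 ranged from 9.40 through 11.4 to 14.5 TPM in non-cachectic mock diaphragms and from 16.5 through 19.2 to 28.3 TPM with rFibcd1, without overlap. The cachectic diaphragms were near the higher of these levels, with medians of 21.1 TPM in mock and 18.4 TPM in rFibcd1 libraries. Ypel2 ranged from 3.83 through 5.54 to 7.75 TPM in non-cachectic mock diaphragms and from 8.51 through 10.6 to 14.0 TPM with rFibcd1, again without overlap. Its cachectic medians of 7.59 TPM (mock) and 7.21 TPM (rFibcd1) lay between those groups. In non-cachectic rFibcd1 libraries the states had close medians, 20.3 TPM (6 high-state) and 18.3 TPM (4 low-state) for Irf2bp2 and 10.2 and 10.6 TPM for Ypel2. In cachectic rFibcd1 libraries the 2 low-state libraries were low for both genes, at 13.2 and 14.9 TPM for Irf2bp2 and 3.75 and 5.47 TPM for Ypel2, where the lowest high-state values were 14.1 and 6.01 TPM. The states thus overlapped for Irf2bp2 and not for Ypel2 in that group.

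**Figure D1:**
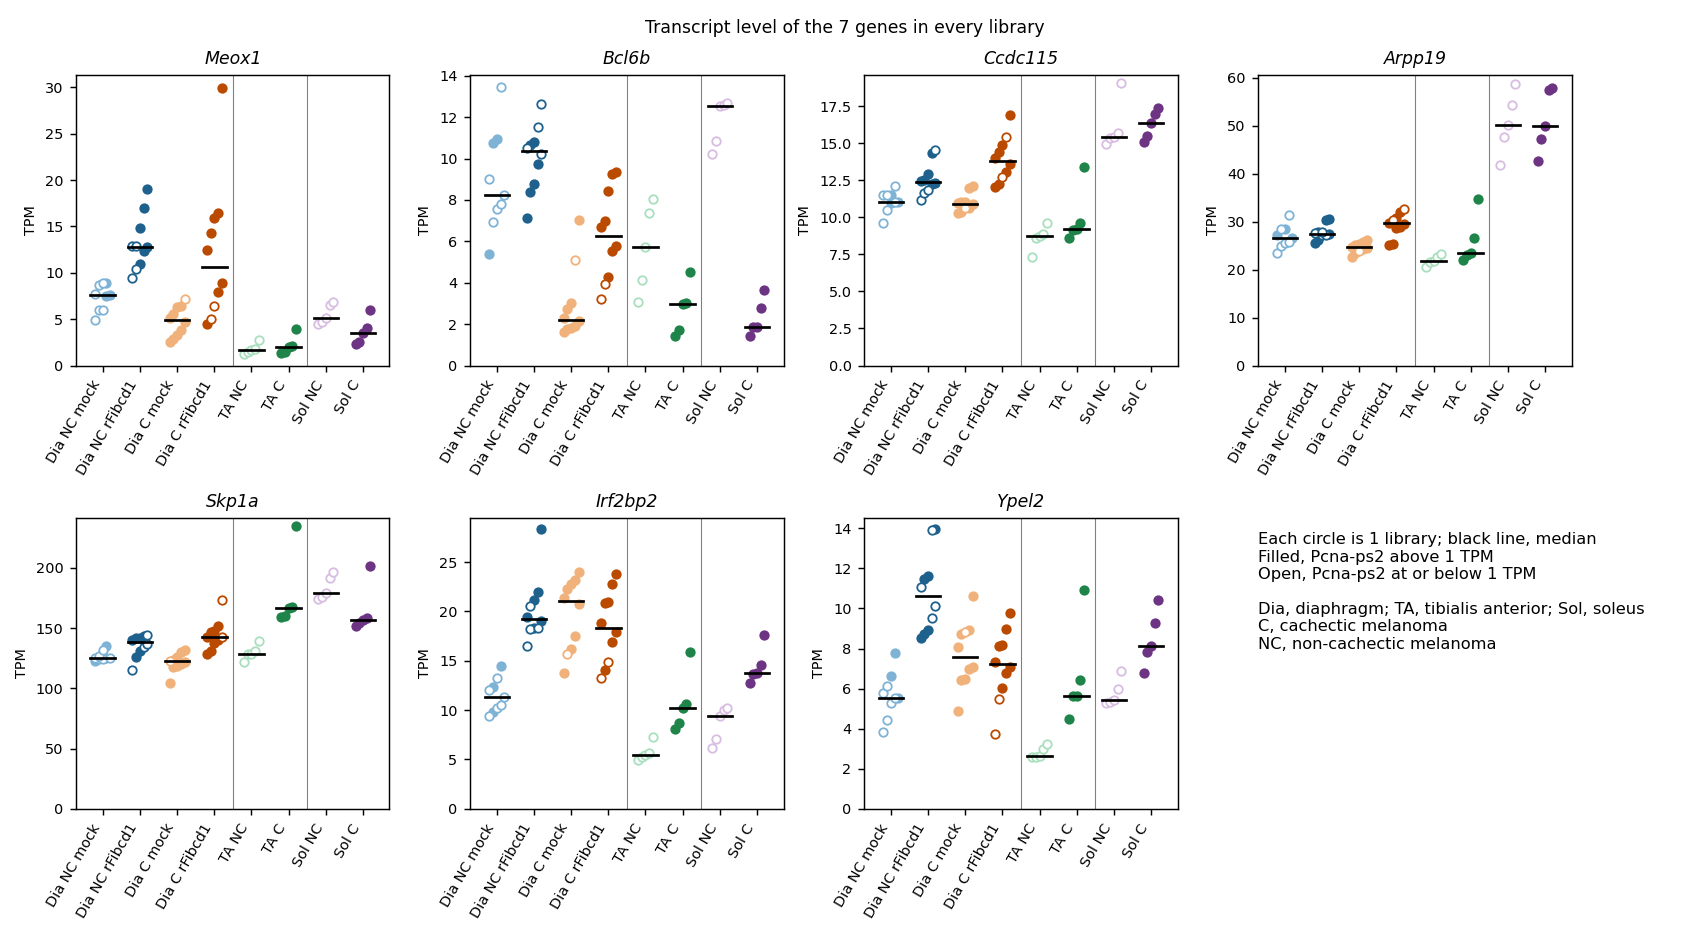
TPM of each of the 7 genes (vertical axes, linear, from 0) in all 59 libraries by group (horizontal axis); circles are libraries, filled where Pcna-ps2 is above 1 TPM, and black lines are medians. Bcl6b is low in cachectic mock diaphragm (median 2.21 TPM) and cachectic soleus (1.87 TPM), while Irf2bp2 is low in non-cachectic mock diaphragm (11.4 TPM) and non-cachectic TA (5.48 TPM).

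The differences between rFibcd1 and mock were estimated on log2(TPM + 1) with limma in a fit of the 39 diaphragm libraries. Under the cachectic melanoma Meox1 was higher by 1.05 ± 0.21 (log2, SE), Bcl6b by 0.94 ± 0.18, Ccdc115 by 0.31 ± 0.054, Arpp19 by 0.24 ± 0.050 and Skp1a by 0.24 ± 0.047, whereas Irf2bp2 and Ypel2 had differences of -0.10 ± 0.11 and -0.11 ± 0.12. These values were used in the choice: 5 of the 7 were called higher and 0 lower at an adjusted p under 0.05, where 0.0372% of the 13426 genes tested were called higher and 0.00745% lower. The largest adjusted p among those 5 was 0.0437, shared by Meox1, Arpp19 and Skp1a, and the next gene, Fmo2, had 0.115.

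Under the non-cachectic melanoma the difference was 0.76 ± 0.11 for Irf2bp2 and 0.83 ± 0.13 for Ypel2. Meox1 had a difference of 0.77 ± 0.22, Bcl6b of 0.18 ± 0.18, Ccdc115 of 0.17 ± 0.056, Arpp19 of 0.05 ± 0.051 and Skp1a of 0.09 ± 0.049. In this comparison 2 of the 7 were called higher and 0 lower, where 0.350% of all genes were called higher and 0.0670% lower, and the last gene called had an adjusted p of 0.0482 and the next 0.0627. Meox1 was called under the cachectic melanoma and not under the non-cachectic one, but the difference of its rFibcd1 effect between melanomas was 0.28 ± 0.30, with an interval of 2 SE from -0.33 to 0.89. That difference was -0.86 ± 0.15 for Irf2bp2 and -0.93 ± 0.18 for Ypel2, the values by which these genes, with Gm3411, were also called.

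**Figure D2:**
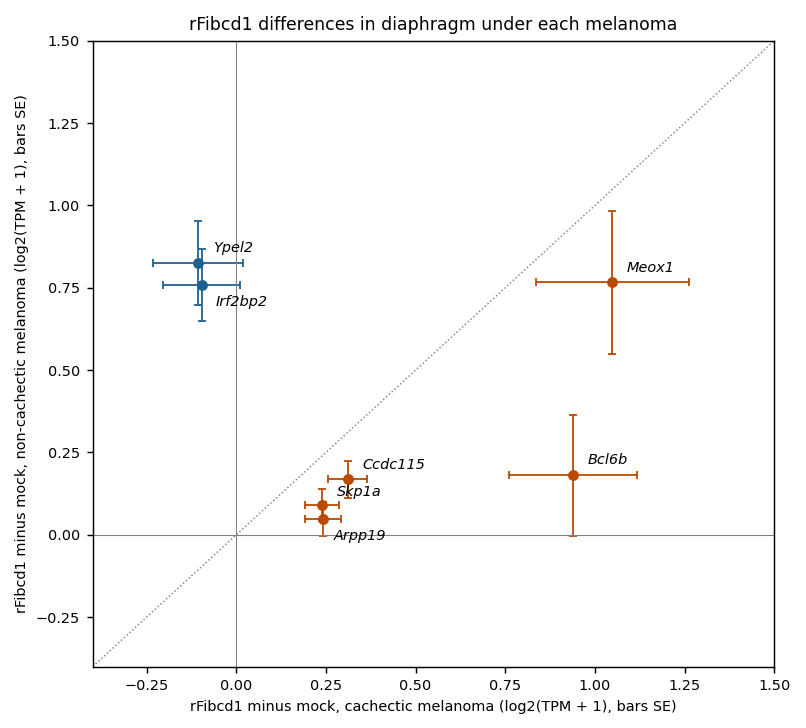
Difference of rFibcd1 from mock in diaphragm (log2(TPM + 1), bars SE) under the cachectic melanoma (horizontal axis) and the non-cachectic melanoma (vertical axis); the dotted line marks equal differences, and colours mark the comparison in which each gene was called (orange cachectic, blue non-cachectic). Meox1 is the gene with large differences on both axes (1.05 and 0.77), while Irf2bp2 and Ypel2 lie near 0 on the horizontal axis.

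The scale of a library bears on the small differences. TPM sums to a fixed total, so a change in a few very abundant muscle transcripts moves all other genes, and the median over all genes was shifted by 0.15 (log2) for rFibcd1 under the non-cachectic melanoma and by 0.03 under the cachectic melanoma. After median-ratio scaling, which removes that shift, the cachectic differences were 1.02 ± 0.19 for Meox1, 0.90 ± 0.18 for Bcl6b and 0.22 to 0.29 with an SE of 0.082 to 0.097 for Ccdc115, Arpp19 and Skp1a. The last 3 would then not have been called. The non-cachectic differences were then 0.59 ± 0.097 for Irf2bp2, 0.67 ± 0.11 for Ypel2 and 0.61 ± 0.20 for Meox1. Those of Bcl6b (0.021 ± 0.19), Ccdc115 (0.0027 ± 0.084), Arpp19 (-0.12 ± 0.098) and Skp1a (-0.087 ± 0.099) went to near 0 or below it. Over all genes the calls with rFibcd1 moved from 47 higher and 9 lower to 28 and 27 under the non-cachectic melanoma, and from 5 and 1 to 15 and 12 under the cachectic one.

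The melanomas themselves were compared in the mock diaphragms, which share their libraries with the comparisons above, so that the choice of the genes bears on these values too. With the cachectic melanoma Bcl6b was lower by 1.39 ± 0.18 and Meox1 by 0.57 ± 0.22, whereas Irf2bp2 was higher by 0.72 ± 0.11 and Ypel2 by 0.38 ± 0.13. Ccdc115 (-0.01 ± 0.056), Arpp19 (-0.12 ± 0.051) and Skp1a (-0.06 ± 0.049) had small differences as deposited, against a median of 0.20 over all genes. After scaling these were -0.22 ± 0.084, -0.34 ± 0.098 and -0.29 ± 0.099, and the difference of Ypel2 was 0.19 ± 0.11. With the mean of endothelial markers as a term, the difference of Ypel2 was 0.09 ± 0.12. Between rFibcd1 diaphragms the melanoma difference was -0.28 ± 0.21 for Meox1, -0.63 ± 0.18 for Bcl6b, -0.13 ± 0.11 for Irf2bp2 and -0.55 ± 0.12 for Ypel2.

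To see which transcripts varied with the 7 genes from animal to animal, each library's deviation from its group mean was compared over the 39 diaphragm libraries, among 9049 genes with a mean of at least 5 TPM. The r values that follow are descriptions over libraries that share a fixed TPM total. Meox1 was most like Gpr153 (r = 0.82), 1110002E22Rik (0.79), Loxl1 (0.79), Loxl2 (0.79) and Tuba1a (0.78), and Loxl1 and Loxl2 encode lysyl oxidases that cross-link collagen and elastin. It also varied with the mean of 8 fibroblast markers such as Pdgfra and Col1a1 (r = 0.74, Spearman's rho = 0.58, and r = 0.69 without the 2 libraries farthest from the median). Within groups that r was 0.84 in cachectic rFibcd1, 0.54 in cachectic mock, 0.57 in non-cachectic mock and 0.48 in non-cachectic rFibcd1 libraries.

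Of the 8 fibroblast markers none was called for rFibcd1 under either melanoma. In cachectic diaphragms 0 of 8 had an unadjusted p under 0.05 and in non-cachectic 2 of 8, beside 1412 and 2332 of all 13426 genes. None of the 8 markers was at 0. Their summed level was 1452 to 2368 TPM in cachectic mock, 1161 to 2637 TPM in cachectic rFibcd1, 1386 to 2131 TPM in non-cachectic mock and 1755 to 2439 TPM in non-cachectic rFibcd1 diaphragms. In bulk muscle fewer cells of a type cannot be told apart from less RNA per cell, and the part of fibroblasts in the Meox1 values was not tested.

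Bcl6b was most like Col5a3 (r = 0.60), Hdac11 (0.60), Sh3bp5 (0.59), Snx24 (0.58) and Mlxip (0.57). With the mean of 12 endothelial markers (Pecam1, Cdh5, Kdr and others) its r was 0.09, while that of Ypel2 was 0.60, beside 0.57 with satellite cell, 0.48 with mesothelium and 0.43 with fibroblast markers. Ypel2 was most like Wwtr1 (0.80), Sh3bp5 (0.77) and the endothelial receptor Cd93 (0.77), and Irf2bp2 was most like Ccar1 (0.70), Ppp4r2 (0.69) and Sec62 (0.69). Ccdc115 varied with Ssna1 (0.67), Pomp (0.66), a chaperone of proteasome assembly, and Lsm12 (0.63), and Arpp19 with Mrps11 (0.62), Rangrf (0.59) and Rpp30 (0.58). Skp1a was most like Gm6576 (0.73) and Hint1 (0.70). Among the 7 themselves the highest values in diaphragm were 0.47 for Meox1 with Ccdc115 and 0.45 for Irf2bp2 with Ypel2, and the lowest was -0.48 for Bcl6b with Skp1a.

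Clock genes were called in the comparison in which Irf2bp2 and Ypel2 were called. In non-cachectic diaphragms 3 of 15 clock genes were called higher with rFibcd1 and 7 lower, from Arntl (2.25) to its output gene Dbp (-2.46), with a median of -0.77 against 0.15 over all genes. The clock index (mean log2 of Dbp, Per2, Per3 and Ciart minus that of Arntl, Npas2 and Clock) had a median of 3.07 in non-cachectic mock, -0.25 in non-cachectic rFibcd1, 2.73 in cachectic mock and 1.96 in cachectic rFibcd1 libraries. Over the 39 libraries Ypel2 deviated against this index (r = -0.62, rho = -0.57, and r = -0.57 without the 2 farthest libraries), as did Irf2bp2 less closely (r = -0.43, rho = -0.41, and r = -0.35). Meox1 had an r of -0.43 with the index as well, and the other 4 genes lay between -0.22 and 0.02. With the index as a term in the fit the non-cachectic differences were 0.33 ± 0.15 for Ypel2, 0.47 ± 0.15 for Irf2bp2 and 0.16 ± 0.29 for Meox1, in place of 0.83, 0.76 and 0.77. The index ran from 0.66 to 4.05 in non-cachectic mock and from -2.39 to 1.05 in non-cachectic rFibcd1 libraries. Since these groups scarcely overlap, index and treatment can hardly be told apart in that fit. The part of the clock in these differences was not tested further, and the time of day of collection is not given in the sources used here.

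**Figure D3:**
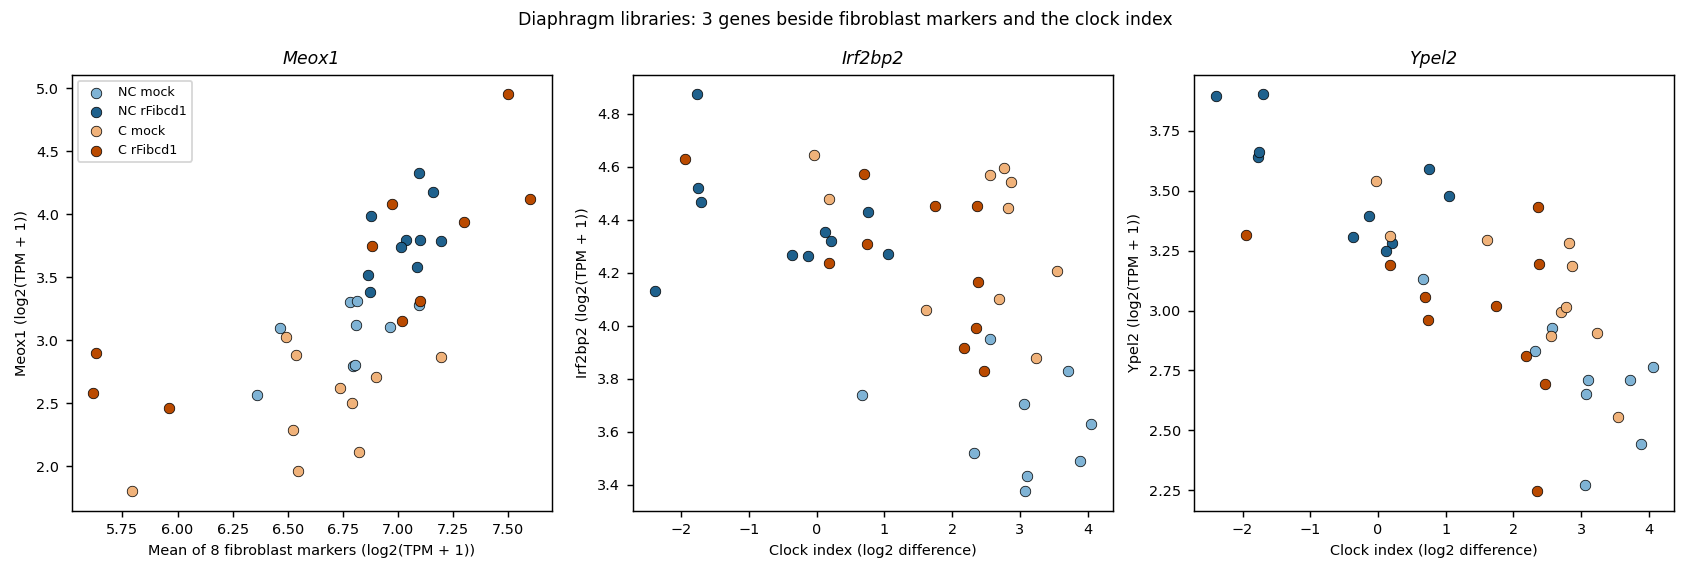
Log2(TPM + 1) of Meox1 against the mean of 8 fibroblast markers, and of Irf2bp2 and Ypel2 against the clock index, in the 39 diaphragm libraries, coloured by group (C, cachectic; NC, non-cachectic). The 3 cachectic rFibcd1 libraries at the far left of the Meox1 panel have 4.52, 4.99 and 6.47 TPM of Meox1, and non-cachectic rFibcd1 libraries hold the low end of the clock index (median -0.25).

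The limb muscles were tested for whether the 7 genes differed between melanomas in TA and in soleus. The limb columns carry the same numbers as 10 of the mock diaphragm columns, and deviated with them (r over 0.1 in 10 of 10 pairs for TA, 0.134 to 0.502, and in 8 of 10 for soleus, 0.010 to 0.450). The tests are therefore of other libraries than those of the choice, but they are not shown to be of other mice. Bcl6b fell and Irf2bp2 and Ypel2 rose with the cachectic melanoma in each muscle, while Meox1, Ccdc115 and Arpp19 passed the test in neither as deposited. Skp1a rose in TA as deposited but not after median-ratio scaling (-0.07, limma adjusted p = 0.561), and passed the test in soleus on neither scale. Each muscle was fitted separately with limma on log2(TPM + 1), and p-values were adjusted by Benjamini-Hochberg over all genes.

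In TA 3 of the 7 genes were called higher and 1 lower, where 56.4% of the 11105 genes tested were called higher and 3.78% lower. In soleus 2 were called higher and 1 lower, where 17.5% of 11957 genes were called higher and 7.54% lower. The median difference of the 7 was 0.22 in TA and 0.01 in soleus, against 0.41 and 0.09 over all genes. The number called higher was thus no larger a share than the background in TA.

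Bcl6b had 3.05, 4.12, 5.74, 7.35 and 8.05 TPM in non-cachectic TA and 1.42, 1.69, 2.99, 3.04 and 4.51 TPM in cachectic TA, where 4 of 5 cachectic libraries lay below all non-cachectic libraries. It fell by 0.84 ± 0.26 (log2, SE; limma adjusted p = 0.0188). In soleus the gene had 10.2, 10.8, 12.5, 12.6 and 12.7 TPM in non-cachectic libraries and 1.40, 1.87, 1.87, 2.76 and 3.66 TPM in cachectic libraries, without overlap. There it fell by 1.98 ± 0.16 (limma adjusted p = 2.48e-05) and ranked 29th of all genes by p-value.

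Endothelial markers were read beside Bcl6b. In TA 9 of the 12 were called higher and 1 lower, from Esam (1.09) to Kdr (-0.49), where 4 were higher and 1 lower after scaling, with a summed level of 150.8 to 202.9 TPM in non-cachectic and 198.9 to 474.6 TPM in cachectic libraries. In soleus 1 was higher (Tek, 0.35) and 1 lower (Kdr, -0.59), and 0 and 2 after scaling, with sums of 271.9 to 338.4 TPM and 258.2 to 475.1 TPM, and none of the markers was at 0 in a group. The summed endothelial markers overlapped between the groups in each muscle. In TA the cachectic sums were 198.9, 249.6, 254.6, 266.9 and 474.6 TPM against at most 202.9 TPM in non-cachectic libraries. The part of these markers in the Bcl6b differences was not tested.

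Irf2bp2 had 4.98, 5.26, 5.48, 5.70 and 7.27 TPM in non-cachectic TA and 8.10, 8.72, 10.2, 10.6 and 15.8 TPM in cachectic TA, without overlap. It rose by 0.77 ± 0.17 (limma adjusted p = 0.0043). In soleus it had 6.18, 7.04, 9.36, 10.0 and 10.2 TPM in non-cachectic and 12.7, 13.6, 13.7, 14.5 and 17.6 TPM in cachectic libraries, again without overlap, and rose by 0.71 ± 0.14 (limma adjusted p = 0.0045). The cachectic level of this corepressor was the higher one in both limb muscles.

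Ypel2 had 2.58, 2.58, 2.64, 3.00 and 3.22 TPM in non-cachectic TA and 4.47, 5.63, 5.64, 6.43 and 10.9 TPM in cachectic TA, and rose by 0.95 ± 0.18 (limma adjusted p = 0.0025). In soleus it had 5.27, 5.34, 5.43, 5.97 and 6.88 TPM in non-cachectic and 6.80, 7.82, 8.13, 9.30 and 10.4 TPM in cachectic libraries, and rose by 0.48 ± 0.12 (limma adjusted p = 0.0115). The groups did not overlap in TA, and in soleus 4 of 5 cachectic libraries lay above all non-cachectic libraries. Over the 20 limb libraries the deviations of all pairs of the 7 genes from their group means had a positive r, from 0.18 for Arpp19 with Irf2bp2 to 0.75 for Skp1a with Ypel2, and that of Irf2bp2 with Ypel2 was 0.70. Cachectic TA library 3 was the highest of its group for all 7 genes, and no r without it is given here.

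Meox1 was close to the filter of 1 TPM in TA, at 1.22 to 2.77 TPM in non-cachectic and 1.38 to 3.95 TPM in cachectic libraries, a difference of 0.16 ± 0.20 (limma adjusted p = 0.486) whose interval of 2 SE ran from -0.24 to 0.57. In soleus it had 4.49, 4.71, 5.09, 6.55 and 6.87 TPM in non-cachectic and 2.36, 2.54, 3.50, 4.05 and 5.97 TPM in cachectic libraries, where 4 of 5 cachectic libraries lay below the non-cachectic range. That difference of -0.52 ± 0.19 missed the threshold (limma adjusted p = 0.0707). Of the 8 fibroblast markers 4 were called higher in TA, up to Dcn (1.00), and 0 lower, against 2 and 0 scaled. As deposited 56.4% of all genes were called higher in TA and 3.78% lower. In soleus 0 of the 8 were called higher and 3 lower, down to Col1a1 at -2.33. The summed level of the 8 was 505.4 to 1445 TPM in cachectic and 1114 to 1671 TPM in non-cachectic soleus. The 5 cachectic libraries had marker sums of 505.4, 749.0, 564.9, 1445 and 1079 TPM beside 2.36, 2.54, 5.97, 3.50 and 4.05 TPM of Meox1. The part of fibroblasts in the Meox1 difference was not tested.

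Skp1a had 121.9 to 138.9 TPM in non-cachectic and 159.5 to 234.9 TPM in cachectic TA, without overlap, and rose by 0.44 ± 0.12 (limma adjusted p = 0.0106). In soleus, at 174.1 to 196.3 and 152.0 to 201.5 TPM, its difference was -0.16 ± 0.089 (limma adjusted p = 0.205). Ccdc115 ranged from 7.31 to 9.61 TPM in non-cachectic and 8.59 to 13.4 TPM in cachectic TA (difference 0.18 ± 0.13, limma adjusted p = 0.236) and from 14.9 to 19.1 and 15.1 to 17.4 TPM in soleus (0.02 ± 0.085, limma adjusted p = 0.902). Arpp19 ranged from 20.6 to 23.2 and 22.1 to 34.7 TPM in TA (0.22 ± 0.13, limma adjusted p = 0.148, and 0.0486 in the fit of the 6 groups without rFibcd1) and from 41.7 to 58.8 and 42.6 to 57.8 TPM in soleus (0.01 ± 0.11, limma adjusted p = 0.945). A single cachectic TA library was the highest of its group for all 7 genes.

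**Figure D4:**
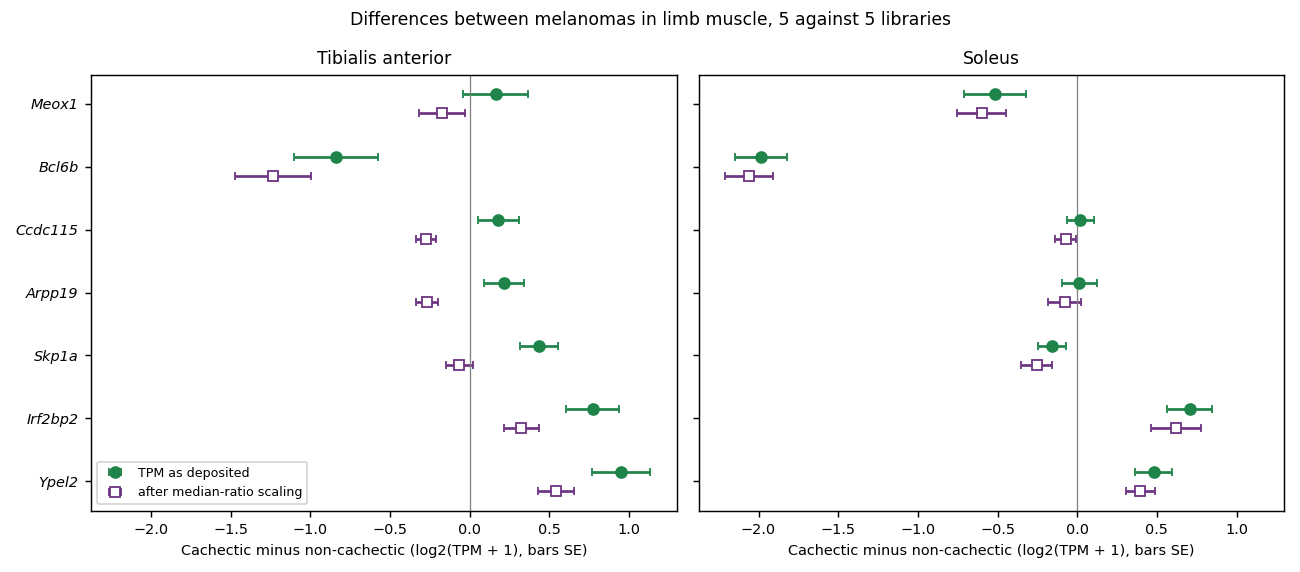
Difference between cachectic and non-cachectic libraries (log2(TPM + 1), bars SE, 5 against 5) in TA (left) and soleus (right), from TPM as deposited (filled circles) and after median-ratio scaling (open squares). Bcl6b lies left of 0 and Irf2bp2 and Ypel2 right of 0 in both muscles and on both scales, whereas Meox1, Ccdc115, Arpp19 and Skp1a change sign in TA with the scale (from 0.16, 0.18, 0.22 and 0.44 to -0.17, -0.27, -0.27 and -0.07).

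The scale mattered in TA, where 93.71% of the genes called were higher as deposited and 45.64% after median-ratio scaling. On the scaled values Bcl6b (-1.23 ± 0.24, limma adjusted p = 0.0030), Irf2bp2 (0.32 ± 0.11, adjusted p = 0.0362) and Ypel2 (0.54 ± 0.11, adjusted p = 0.0043) kept their calls. Skp1a lost its call at -0.07 ± 0.085, and Ccdc115 (-0.27 ± 0.064, limma adjusted p = 0.0076) and Arpp19 (-0.27 ± 0.071, adjusted p = 0.0128) were called lower. In soleus the share of higher calls was 69.96% as deposited and 54.33% scaled, with Bcl6b (-2.06 ± 0.15), Irf2bp2 (0.62 ± 0.16) and Ypel2 (0.39 ± 0.092) still called, and with Meox1 called lower (-0.60 ± 0.15, limma adjusted p = 0.0158). The calls of Bcl6b, Irf2bp2 and Ypel2 in each muscle therefore did not rest on the scale, and that of Skp1a did.

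The fast and the slow limb muscle were then compared in non-cachectic mice, which answers where each gene is more abundant. The fit held the 6 groups without rFibcd1, so the spread of the mock diaphragms used in the choice enters these p-values. As deposited all 7 genes were called lower in TA, where 63.9% of 13501 genes were called lower and 5.63% higher and the median over all genes was -0.47. The differences ran from -0.49 ± 0.15 for Irf2bp2 (limma adjusted p = 0.0050) to -1.24 ± 0.22 for Meox1 (adjusted p = 6.9e-06), and only for Irf2bp2 did the groups overlap. Scaling moved the share of higher calls among the genes called from 8.098% to 52.91%, with 3808 higher and 3389 lower of 13501 genes. After it 4 of the 7 remained lower, namely Meox1 (-0.81), Arpp19 (-0.55), Ypel2 (-0.34) and Ccdc115 (-0.25). Skp1a and Irf2bp2 changed sign to 0.13 and 0.06, and Bcl6b (-0.45 ± 0.25, limma adjusted p = 0.132) lost its call, which it kept with scaling and a block for the column number together (adjusted p = 0.0216).

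Across all 8 groups the order of the levels differed from gene to gene. Meox1 was highest in rFibcd1 diaphragm (medians 12.8 TPM non-cachectic and 10.7 TPM cachectic) and lowest in TA, and Bcl6b was highest in non-cachectic soleus (12.5 TPM) and lowest in cachectic soleus (1.87 TPM). Ccdc115 and Arpp19 were highest in soleus (medians 15.4 to 16.4 and 49.9 to 50.1 TPM), and Arpp19 in soleus did not overlap with the next group. Skp1a was highest in non-cachectic soleus (179.4 TPM), Irf2bp2 in cachectic mock diaphragm (21.1 TPM) and Ypel2 in non-cachectic rFibcd1 diaphragm (10.6 TPM). Apart from Arpp19 below soleus and Ypel2 in non-cachectic TA, which lay below all other groups, every group overlapped with the next one in its order.

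The melanoma effect was compared between TA and soleus as an interaction in a fit of the 39 libraries without rFibcd1. That fit includes the mock diaphragms used in the choice, so their spread enters these p-values. It differed for Bcl6b, by 1.15 ± 0.37 (TA minus soleus, limma adjusted p = 0.0280), and for Skp1a, by 0.60 ± 0.11 (adjusted p = 0.00064). Of the 7 genes 2 thus passed as higher and 0 as lower, where the background over 13501 genes was 19.1% higher and 1.26% lower. Median-ratio scaling took the share of higher calls from 93.82% to 32.82%, and on those values the differences were 0.74 ± 0.36 (limma adjusted p = 0.186) and 0.18 ± 0.12 (adjusted p = 0.352), so neither call held without a block. With a block for the column number that TA and soleus libraries share, as deposited, Meox1 (0.68 ± 0.17, limma adjusted p = 0.0045) and Ypel2 (0.47 ± 0.17, adjusted p = 0.0288) were called as well, 4 of the 7 in all. With scaling and the block together Bcl6b (0.74 ± 0.23, limma adjusted p = 0.0263) and Meox1 (0.40 ± 0.14, adjusted p = 0.0444) were called and Skp1a was not (0.18 ± 0.095, adjusted p = 0.177). The share of all genes called in the fits with the block is not given here, so these counts have no background beside them. Without cachectic TA library 3, the one that was highest for all 7 genes, the call of Bcl6b was lost (0.99), and it was also lost without cachectic soleus library 1 (1.10) or non-cachectic TA library 1 (0.98).

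Close relatives and partners of the 7 genes were read from lists chosen with earlier results of these data known, and counts in TA are given as deposited and after median-ratio scaling. They stand beside 56.4% of all genes called higher and 3.78% lower in TA and 17.5% and 7.54% in soleus, and after scaling beside 2043 higher and 2433 lower of 11105 genes in TA and 1820 and 1530 of 11957 in soleus, so that a TA count below its background is no result about a list. Meox2, the other mesenchyme homeobox gene, had a median of 14.1 to 16.1 TPM in all 4 diaphragm groups and differed little with rFibcd1 (0.02 ± 0.082 cachectic and -0.08 ± 0.085 non-cachectic). It rose in TA as deposited (0.57, limma adjusted p = 0.0161) but not on the scaled values (0.11, adjusted p = 0.267), and in soleus its difference was -0.24 (adjusted p = 0.138). Of 8 homeobox and somite factors tested in TA 3 rose, up to Eya1 (0.71), and scaled 1 rose and 2 fell. Of 14 transforming growth factor beta and matrix genes 5 rose in TA, up to Tgfbr2 (1.12), and scaled 2 rose and 1 fell. In soleus 4 of these 14 fell, down to Col1a1 (-2.33), and scaled 5 fell.

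Bcl6, the relative of Bcl6b, was called in neither limb muscle (0.25 in TA, limma adjusted p = 0.387, and -0.12 in soleus, adjusted p = 0.631), and its rFibcd1 differences were 0.01 ± 0.16 in cachectic and 0.21 ± 0.17 in non-cachectic diaphragm. Of 5 genes for Bcl6 and its corepressors 2 rose in TA, up to Hdac3 (0.52), where scaled none rose and 1 fell. None of the 5 was called by limma in soleus as deposited, and scaled 1 fell. An unadjusted p under 0.05 was held there by 1 of 5 as deposited, beside 4593 of all 11957 genes. Whether Bcl6b and Bcl6 differed from each other was not tested.

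The V-ATPase list holds genes of the pump that Ccdc115 helps to assemble. In soleus 11 of 17 genes rose, up to Atp6v1h (1.07), and 10 rose on the scaled values, with a median of 0.35 as deposited. In TA 16 of 17 rose, up to Atp6v0c (0.74), but scaled 2 rose and 2 fell. Tmem199, which acts with Ccdc115, rose in soleus (0.35, limma adjusted p = 0.0135, and scaled 0.26, adjusted p = 0.0119), and rose in TA as deposited only (0.41, adjusted p = 0.0228, and scaled -0.05). With rFibcd1 0 of 17 were called by limma under the cachectic or the non-cachectic melanoma. An unadjusted p under 0.05 was held by 1 and 5 of 17, beside 1412 and 2332 of all 13426 genes. The medians were 0.05 and 0.19 against 0.03 and 0.15 over all genes.

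Around Arpp19, its paralogue Ensa rose in soleus (0.31, limma adjusted p = 0.0166) and in TA as deposited (0.52, adjusted p = 0.0020), where the scaled value was 0.02. Of 7 Greatwall and PP2A-B55 genes tested 2 rose in soleus, up to the B55 subunit gene Ppp2r2d (0.42), and 4 in TA, where scaled none rose and 2 fell. Around Skp1a, the cullin Cul1 rose in TA (0.68, limma adjusted p = 0.0076) and soleus (0.26, adjusted p = 0.0388) as deposited, and on the scaled values it passed the test in neither (0.19 and 0.17). The ring-finger partner Rbx1 had 0.23 in TA and 0.12 in soleus without a call, and scaled it fell in TA (-0.27, limma adjusted p = 0.0444). Of 11 SCF genes tested 5 rose in TA, led by the atrophy ligase Fbxo32 (2.32), and scaled 1 rose (Fbxo32, 1.82) and 5 fell. In soleus 4 rose, up to Fbxw11 (0.53), and 1 fell (Btrc, -0.31), against 1 and 2 scaled, where Fbxo32 had -0.27 (limma adjusted p = 0.479).

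Irf2bp1, a paralogue of Irf2bp2, rose in TA as deposited (0.33, limma adjusted p = 0.0410, and scaled -0.13) and had 0.20 in soleus (adjusted p = 0.152). The other paralogue, Irf2bpl, rose in soleus as deposited (0.36, limma adjusted p = 0.0368, and scaled 0.27, adjusted p = 0.0982), and had 0.26 in TA (adjusted p = 0.0812), where the scaled value fell (-0.21, adjusted p = 0.0261). In diaphragm Irf2bpl had -0.32 ± 0.11 with rFibcd1 under the cachectic and 0.31 ± 0.11 under the non-cachectic melanoma. Of the 7 genes of this list 4 rose in TA, up to Irf1 (1.13), and 3 in soleus, and scaled none rose in either muscle and 2 fell in TA.

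In the Yippee-like family Ypel3 rose in TA on both scales (1.07, limma adjusted p = 8.3e-05, and scaled 0.58, adjusted p = 0.0022) and had 0.18 in soleus (adjusted p = 0.436). Ypel5 rose in TA as deposited (0.51, limma adjusted p = 0.0033, and scaled 0.03) and had 0.16 in soleus (adjusted p = 0.255). Ypel4 had medians of 0.260 to 2.28 TPM and Ypel1 of 0.0831 to 0.367 TPM over the 8 groups, so that Ypel1 was not tested and Ypel4 was not tested in TA. Of the 3 relatives tested in diaphragm, 1 (cachectic melanoma) and 0 (non-cachectic) had an unadjusted p under 0.05 for rFibcd1. Over all 13426 genes these numbers were 1412 and 2332. None of the 3 relatives was called by limma for rFibcd1, and none was called in soleus. Whether their differences differed from that of Ypel2 was not tested.

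Glucocorticoid-response genes, which are known to rise in wasting muscle, were read beside these results. In TA 7 of 8 rose, up to Fkbp5 (3.13), and in soleus 6 of 8, up to Ddit4 (1.94), with 7 and 5 on the scaled values. Their summed level was 270.2 to 344.9 TPM in non-cachectic and 548.5 to 1271 TPM in cachectic TA, where library 3, the highest for all 7 genes, was again the highest. In mock diaphragm 7 of 8 were called higher with the cachectic melanoma as deposited, where 30.9% of all genes were called higher and 2.67% lower, and 6 of 8 after scaling, beside 992 higher and 1129 lower of 13426 genes. With rFibcd1 under the cachectic melanoma 0 of 8 were called by limma. Of the 8, 6 had an unadjusted p under 0.05, beside 1412 of all 13426 genes. The median of the 8 was -0.75, and over the 39 diaphragm libraries Meox1 deviated against the mean of these 8 genes (r = -0.55). Clock genes were also called in limb muscle beside the rise of Irf2bp2 and Ypel2, with 3 higher and 7 lower of 14 in soleus, from Arntl (0.98) to Dbp (-1.26), the same counts scaled, and 3 higher and 3 lower of 14 in TA, but 1 higher and 6 lower scaled. The part of either list in the values of the 7 genes was not tested.

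Markers of other cells were also called in limb muscle, where the background in TA was 56.4% of genes higher. Of the macrophage markers 5 of 5 tested rose in TA (up to C1qb at 1.82, and 3 scaled), and in soleus 1 of 6 did on both scales (Cd68, 1.99). Of the tendon markers 3 of 5 fell in soleus on both scales (down to Tnmd at -2.95), and in TA 1 of 4 rose (Scx, 1.22) and 1 fell (Tnmd, -1.27), against 0 and 2 scaled. Of the pericyte and smooth muscle markers 4 of 7 were called higher in TA, a share near that background (up to Tagln at 1.07, and 2 higher and 2 lower scaled), and in soleus 1 of 7 fell on both scales (Rgs5, -0.60). Satellite cell markers had 2 of 3 higher in TA and 1 of 5 in soleus, and scaled 0 higher in either and 1 lower in soleus. Mesothelium markers were at most 5.58 TPM in sum in limb muscle, and Wt1 was listed at 0 in all cachectic TA libraries. With rFibcd1 under the cachectic melanoma none of the markers of these lists was called by limma. At most 2 of a list had an unadjusted p under 0.05, beside 1412 of all 13426 genes. Under the non-cachectic melanoma the endothelial marker Cldn5 was called higher as deposited (0.76, limma adjusted p = 0.0143) and not after scaling (0.59, adjusted p = 0.247). The summed level of the 12 endothelial markers was 283.2 to 375.8 TPM in the mock and 350.9 to 467.1 TPM in the rFibcd1 diaphragms of that melanoma. The part of these markers in the values of the 7 genes was not tested.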

How the data were processed

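The authors sequenced poly(A) RNA of 39 diaphragm, 10 TA and 10 soleus samples, trimmed and filtered the reads, aligned them to the mouse genome GRCm38 in CLC Genomics Workbench and deposited TPM values per gene symbol in 1 table. The annotation and the strand setting of the counting are not given in the sources used here. TPM holds no depth, so counting error could not be computed. Columns name the group but not the labelled replicate. The study gives its samples as tissues of independent animals, within an experiment.

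Values were taken as log2(TPM + 1) in genes with at least 1 TPM in as many samples as the smallest group, and fitted with limma 3.58.1 in R 4.3.3 (empirical Bayes with a trend, two-sided). P-values were adjusted by Benjamini-Hochberg over all genes tested, and an adjusted p under 0.05 was called. TA and soleus were fitted alone, the contrasts between them in the 6 groups without rFibcd1, and the 4 diaphragm groups together as a description. The members and the gene lists were chosen with earlier results of these data known. Named genes were the 7 members, the genes with the most similar deviations (5 for Meox1 and Bcl6b, 3 for the others), their close relatives, and the highest and lowest called gene of each list. Ctsf, the 1 gene called lower with rFibcd1 under the cachectic melanoma, was outside the choice. Some items that this rule would name are not reported here.

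TA and soleus columns of the same number deviated together in 10 of 10 pairs (r = 0.196 to 0.493), the numbers also recur among the mock diaphragm columns, and a block for that number was added as an alternative after the data were seen. Other alternatives were another pseudocount (0.1), no filter, a filter at a mean of 5 TPM, median-ratio scaling, an exact rank-sum test, other sets of groups, terms for library state, clock index and endothelial markers, and leaving out each library. Promoters were searched in Python 3.11.15, near-identical transcripts with BLAST 2.17.0. The fits were tested on simulated data.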

Additional observations from a re-analysis of the deposited data

Results flagged for a closer look

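Single libraries stood apart from their group in 6 of the 56 combinations of gene and group examined by Dixon's test at the 95% level, where chance gives about 1 in 20. The diaphragm groups among them hold values used to choose the genes, so the count over all 56 and the 2 diaphragm libraries below are a description and no test. For Ccdc115 these were the highest cachectic TA library (13.4 TPM, the next at 9.60 TPM) and the highest non-cachectic soleus library (19.1 TPM, the next at 15.7 TPM). For Skp1a they were the lowest cachectic mock diaphragm (104.7 TPM, the next at 118.1 TPM), the highest cachectic TA library (234.9 TPM, the next at 167.2 TPM) and the highest cachectic soleus library (201.5 TPM, the next at 158.5 TPM). For Irf2bp2 it was the highest non-cachectic rFibcd1 diaphragm (28.3 TPM, the next at 21.9 TPM). The melanoma effect differed between TA and soleus, by an interaction term in limma, for Bcl6b (1.15, the fall being smaller in TA) and for Skp1a (0.60, a rise in TA against -0.16 in soleus). Neither difference passed the test after median-ratio scaling alone, and that of Bcl6b passed with scaling and a block for the shared column number together.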

How the results depend on the processing

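Outside of leaving out single libraries 363 of 406 values kept their direction and their side of the threshold or moved by less than the spread, among them all 64 with a pseudocount of 0.1, all 36 without a filter and all 28 each with library state as a term or in high-state libraries alone. Median-ratio scaling changed most. The members called lower were then 3 in TA, 2 in soleus and 4 between TA and soleus, and 0 were called higher for the melanoma effect. Signs reversed under scaling in TA for Meox1 (-0.17), Ccdc115 (-0.27), Arpp19 (-0.27) and Skp1a (-0.065), in soleus for Ccdc115 (-0.072) and Arpp19 (-0.080), between TA and soleus for Skp1a (0.13) and Irf2bp2 (0.059), and for the melanoma effect for Ccdc115 (-0.22), Arpp19 (-0.20) and Irf2bp2 (-0.29). With scaling and the replicate block together these last 5 values were the same, and 2 members were called higher for the melanoma effect (Bcl6b, and Meox1 at 0.40). In diaphragm scaling took the non-cachectic rFibcd1 difference of Arpp19 to -0.12, of Skp1a to -0.087 and of Ccdc115 to 0.0027, and the mock melanoma difference of Ccdc115 to -0.22, of Arpp19 to -0.34 and of Skp1a to -0.29. A filter at a mean of 5 TPM left 0 members called lower in TA because Bcl6b was filtered out. In the fit of the 6 groups without rFibcd1 Arpp19 was called in TA (limma adjusted p = 0.0486). That fit takes part of its spread from the mock diaphragms used in the choice. The exact rank-sum test called 1 member higher in soleus (Ypel2 had an adjusted p of 0.0625). The block for the shared column number raised the calls of the melanoma effect to 4, with no share over all genes beside it, and changed no other count. A block for the labelled replicate numbers was not run, since columns could not be tied to them. With the clock index as a term the non-cachectic rFibcd1 difference was 0.47 for Irf2bp2 and 0.33 for Ypel2, and the cause was not tested.

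With a library left out 1955 of 1974 values held. Members called for the melanoma effect ranged from 1 to 3, and members called lower in soleus from 1 to 2, the latter without cachectic soleus library 3 (Meox1 -0.67) or 5 (Skp1a -0.23). Signs reversed within the ranges of Meox1 in TA (-0.011 to 0.28), Irf2bp2 in the melanoma effect (-0.075 to 0.16), and Arpp19 (-0.052 to 0.074) and Ccdc115 (-0.0063 to 0.077) in soleus. The mock diaphragm difference of Ccdc115 between melanomas also crossed 0 (-0.033 to 0.0048), and was counted as held because it moved by less than the spread. TPM without depth limits what can be said of Meox1 in TA, where it lay between 1.22 and 3.95 TPM.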
